A study of Mus musculus with 19 samples.

Results

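The family C type 2 vomeronasal receptors of the mouse are encoded by Vmn2r1 to Vmn2r7, and their mRNA levels were measured in whole vomeronasal organs (VNOs) of mice that lacked Smad4 in vomeronasal sensory neurons (VSNs). The 7 genes were taken by name from the 35596 genes of the deposited quantifications, and all 7 were found under 1 gene identifier each. The study used polyA mRNA-seq of P21 females to ask how the loss of Smad4, the shared mediator of TGFβ and BMP signaling, alters immature basal VSNs (AP-2εCre) or all mature VSNs (OMPCre). Each line had 3 groups of 3 libraries. Wild-type libraries are labelled Wild Type, and the methods give these controls as Smad4 flox/flox without Cre. Het libraries carried 1 Cre allele, and their labels name no floxed allele (AP-2εCre+/- or OMPCre+/-). cKO libraries carried 1 Cre allele on the floxed Smad4 background and are called AP-2ε cKO or OMP cKO. The Cre of the AP-2ε line sits in Tfap2e and that of the OMP line in Omp, so Het and cKO mice share the loss of 1 copy of that gene. The labels name VSN types as the cell type, but the RNA came from the entire organ, so a smaller number of cells of a type and less RNA per cell cannot be told apart. The labels call the replicates biological but do not say how many mice went into each.

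Type 2 vomeronasal receptors (V2Rs) are G protein-coupled receptors of basal VSNs, which signal through Gαo and project to the posterior accessory olfactory bulb. Most V2R genes are chosen so that a neuron expresses few of them, whereas family C receptors are expressed broadly, together with a V2R of another family. Vmn2r1 marks a subset of basal neurons that is largely distinct from the neurons expressing Vmn2r2 to Vmn2r7, and the V2R2 antibody used to label basal VSNs is directed against family C proteins.

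All 7 genes lie in a cluster on chromosome 3 (GRCm38), from Vmn2r1 at 64081547 to 64109484 on the plus strand to Vmn2r7 at 64685044 to 64844765 on the minus strand. Between them, all on the minus strand, are Vmn2r2 (64115278 to 64141928), Vmn2r3 (64257215 to 64289709), Vmn2r4 (64383044 to 64415368), Vmn2r5 (64488609 to 64509842) and Vmn2r6 (64531310 to 64565830). Each has 6 coding exons and a coding sequence of 2724 to 2745 bases in the GENCODE vM21 models. Over aligned coding bases, Vmn2r6 and Vmn2r7 were 98.8% identical, Vmn2r4 was 97.3% identical to Vmn2r7 and 96.8% to Vmn2r6, and Vmn2r2 and Vmn2r5 were 93.4% identical. Vmn2r1 was 84.9% to 88.2% identical to the others, and Vmn2r3 was nearest to Vmn2r7 with 90%.

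How a 75-base read can tell members apart from Vmn2r2 is shown by a coding window of 75 bases. Among windows within a single exon and aligned without gaps, this window has the most differences from Vmn2r2, summed over the members. It is printed 5′ to 3′ on the coding strand from GENCODE vM21 transcripts with GRCm38 coordinates, and capitals mark bases that differ from Vmn2r2 at the aligned position.
Vmn2r1 (chr3:64101309-64101383, plus strand): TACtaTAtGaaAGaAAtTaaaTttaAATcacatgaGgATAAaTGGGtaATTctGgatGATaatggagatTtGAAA
Vmn2r2 (chr3:64126630-64126704, minus strand): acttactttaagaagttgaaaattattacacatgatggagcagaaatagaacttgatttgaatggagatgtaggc
Vmn2r3 (chr3:64271352-64271426, minus strand): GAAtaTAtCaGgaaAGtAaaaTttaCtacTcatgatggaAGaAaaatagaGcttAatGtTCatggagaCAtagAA
Vmn2r4 (chr3:64398515-64398589, minus strand): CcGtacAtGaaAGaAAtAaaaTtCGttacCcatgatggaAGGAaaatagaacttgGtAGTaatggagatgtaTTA
Vmn2r5 (chr3:64495844-64495918, minus strand): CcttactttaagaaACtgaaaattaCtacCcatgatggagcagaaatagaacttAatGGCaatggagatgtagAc
Vmn2r6 (chr3:64547392-64547466, minus strand): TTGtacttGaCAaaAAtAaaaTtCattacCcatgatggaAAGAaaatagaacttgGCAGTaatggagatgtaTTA
Vmn2r7 (chr3:64707174-64707248, minus strand): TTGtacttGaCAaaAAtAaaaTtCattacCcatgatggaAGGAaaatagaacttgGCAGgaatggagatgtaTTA
Relative to Vmn2r2, this window held 36 differences in Vmn2r1, 25 in Vmn2r3, 24 each in Vmn2r4 and Vmn2r6, 23 in Vmn2r7 and 10 in Vmn2r5. Vmn2r6 and Vmn2r7 are nearly alike in it, so it does not show how well a read separates that pair.

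Other windows do not separate the genes at all. The following stretch, which starts at coding base 2581 of Vmn2r2, is identical in the 7 genes, and a read from it cannot be placed in any of them.
Vmn2r2 (chr3:64116504-64116578, minus strand): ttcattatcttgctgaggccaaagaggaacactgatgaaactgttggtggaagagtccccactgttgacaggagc
In all, 45 different 75-base sequences occurred in transcripts of all 7 members.

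Read sharing therefore differed between members. Of the 75-base sequences of its listed transcripts, 98.7% were found in no other gene for Vmn2r3, 92.7% for Vmn2r1, 89% for Vmn2r2 and 85.8% for Vmn2r4. It was 65.5% for Vmn2r6 and 64.5% for Vmn2r7, which share reads mainly with each other (31.9% and 31.7%), and 62.6% for Vmn2r5. Vmn2r5 shared 30.7% of its sequences with the pseudogene Vmn2r-ps11, which was assigned between 0 and 48 estimated counts in a library. Values of Vmn2r4, Vmn2r5, Vmn2r6 and Vmn2r7 are therefore uncertain as single genes, and the split between transcripts was less certain still. In Vmn2r7, transcript ENSMUST00000233255.1 ranged from 0 to 6088 estimated counts and ENSMUST00000161972.9 from 0 to 7805. All Vmn2r5 counts were assigned to ENSMUST00000177184.8, and its other transcript was listed at 0 in all 18 libraries.

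The libraries held 43385516 to 134042284 estimated counts, and their 10 most abundant genes took 16.8% to 32.3% of them. Smad4, the targeted gene, was at 80.6, 70.6 and 39.8 CPM in AP-2ε wild-type, 43.7, 80 and 41.4 in Het and 66.5, 66.8 and 33.8 in cKO libraries. In OMP mice it was at 79.1, 73.2 and 65.1 CPM in wild-type, 83.9, 76.4 and 77.7 in Het and 62.1, 62.5 and 54.2 in cKO libraries. Thus the 3 AP-2ε cKO libraries overlapped their controls (log2 fold change -0.09, SE 0.31), whereas the OMP cKO libraries lay below all 6 of theirs (-0.34, SE 0.09) without passing the adjusted test (edgeR quasi-likelihood, adjusted p = 0.96 and 0.82). Whole-organ RNA includes cells without Cre. Per the paper, LoxP sites flank a single exon of Smad4, while the counts cover the whole gene. This level therefore checks the labels of either line only weakly, and the part of each limit was not tested. The library titled AP-2ε Het replicate 4 carries the cKO genotype in its labels, was put in no group, and is given apart. AP-2ε Het replicate 1 stood apart from the other Het libraries, with Gnao1 (encoding Gαo) at 135 CPM, the lowest of all libraries, and the gland and sustentacular gene Cyp2a5 at 1971 CPM, and the AP-2ε comparisons of the members with their controls are given with and without it.

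Across the 18 libraries of the 6 groups the family was an abundant part of the V2R repertoire. Levels are compared between genes in TPM, the length-corrected transcript abundance deposited by the authors. Vmn2r2 was the highest member with 26.3 ± 8.14 TPM (SD, n = 18) and was second among 122 V2r genes by this pooled mean. Its group means were 20.6 TPM in AP-2ε cKO and 24.2 to 31.7 in the other groups. In each OMP group the mean of Vmn2r122 was above that of Vmn2r2. Among the members, Vmn2r7 followed with 21.7 ± 8.32 TPM and Vmn2r6 with 15.6 ± 6.46 TPM.

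Below them, Vmn2r1 was at 13.8 ± 3.93, Vmn2r4 at 11.3 ± 4.87 TPM and Vmn2r3 between 3.57 and 22.9 TPM, and Vmn2r5 was far lower with 1.83 ± 1.65 TPM, which ranked 91 of 122. The median of the other 115 V2r genes was 3 TPM, and the highest of them were Vmn2r49 (31.5 ± 13.2 TPM), Vmn2r122 (24.3 ± 18.9 TPM) and Vmn2r88 (24 ± 7.11 TPM). The mean of Vmn2r122 differed between groups, with 7.15 TPM in AP-2ε wild-type, 6.19 in AP-2ε cKO and 23.3 to 41.2 in the other 4 groups. Within a library, Vmn2r2 exceeded Vmn2r7 in 17 of 18, Vmn2r7 exceeded Vmn2r6 in 18 of 18 and Vmn2r3 exceeded Vmn2r5 in 18 of 18. The neighbours Vmn2r6 and Vmn2r1, Vmn2r1 and Vmn2r4, and Vmn2r4 and Vmn2r3 differed by less than the spread of their difference (1.73 ± 4.23, 2.53 ± 2.8 and 1.15 ± 3.68 TPM), with the first above the second in 14, 16 and 11 of 18 libraries. The order depended on the group, since Vmn2r1 was above Vmn2r6 in 3 of 3 AP-2ε cKO libraries, and Vmn2r3 was above Vmn2r4 in 3 of 3 libraries of each cKO group.

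**Figure D1:**
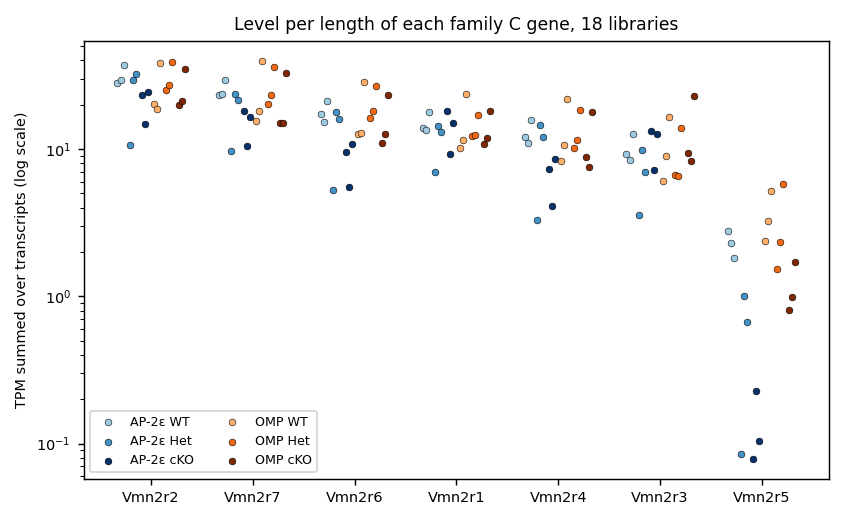
Level per length of each family C gene in 18 libraries, in TPM summed over transcripts on a log axis, with 1 dot per library coloured by group and genes ordered by their mean. Vmn2r2 is highest with a mean of 26.3 TPM, and Vmn2r5 is lowest with a mean of 1.83 TPM and the widest relative spread.

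The family as a whole was lower in AP-2ε cKO than in AP-2ε wild-type organs. The 7 genes summed to 709, 581 and 660 CPM (library-scaled counts, with TMM factors) in wild-type, 244, 570 and 540 in Het and 361, 281 and 416 in cKO libraries. All cKO libraries were below all wild-type libraries and within the range of the Het libraries, of which Het replicate 1 was lowest. The library with conflicting labels was at 360 CPM.

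Group means were 650 ± 64.3 CPM (SD, n = 3) in wild-type, 452 ± 180 in Het and 353 ± 67.7 in cKO libraries of this line. On the log2(CPM + 1) scale, the cKO mean was -0.59 against the mean of both controls and -0.78 with Het replicate 1 left out. In TPM the same difference was -0.34. These sums are given as levels without a test.

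In the OMP line the family sum was at 549, 504 and 761 CPM in wild-type, 538, 574 and 645 in Het and 482, 488 and 680 in cKO libraries. The 3 groups overlapped, and the highest library of each was replicate 3, the replicate whose library name is of another series than those of replicates 1 and 2. Means were 605 ± 138, 586 ± 54 and 550 ± 113 CPM, and the cKO mean was -0.12 against the controls on the log2 scale (-0.28 without OMP cKO replicate 3 and -0.03 without OMP cKO replicate 1).

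**Figure D2:**
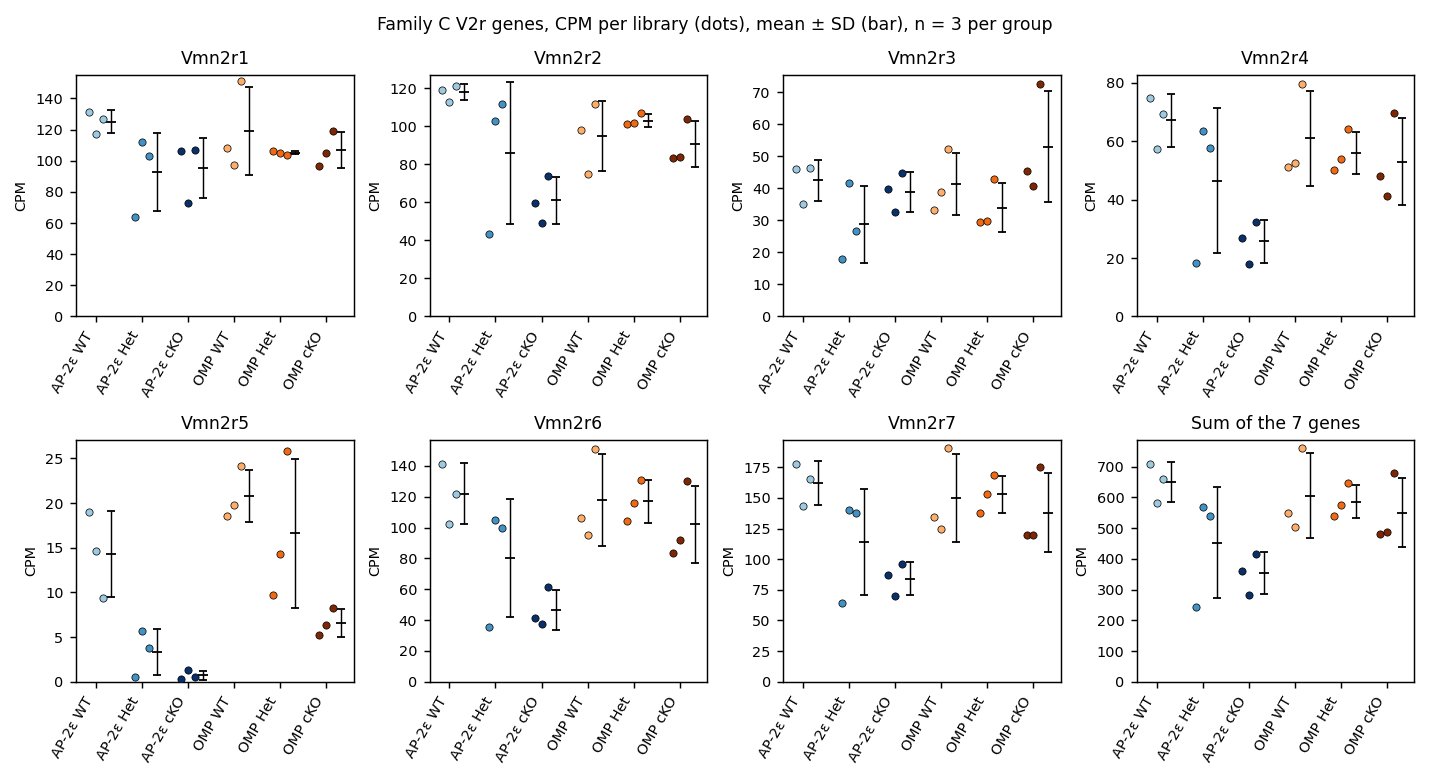
CPM of each family C gene and of their sum, with 1 dot per library, and the mean ± SD of the 3 libraries of each group as a bar beside them. In the AP-2ε line, cKO dots lie below all wild-type dots for every gene except Vmn2r3, and in the OMP line the groups overlap except for Vmn2r5 in cKO.

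In the AP-2ε line the estimated differences ranged widely among members. By edgeR's quasi-likelihood test on estimated counts, the log2 fold change of cKO against the mean of both controls was -3.21 (SE 0.72) for Vmn2r5, -1.12 (SE 0.36) for Vmn2r4, -1.09 (SE 0.32) for Vmn2r6, -0.72 (SE 0.27) for Vmn2r2 and -0.69 (SE 0.23) for Vmn2r7. It was -0.18 (SE 0.18) for Vmn2r1 and 0.15 (SE 0.23) for Vmn2r3, which depended on single libraries, with -0.28 to -0.02 and 0.03 to 0.34 when each was left out in turn. Without Het replicate 1 the values were -3.46 for Vmn2r5, -1.31 for Vmn2r4, -1.26 for Vmn2r6, -0.88 for Vmn2r2, -0.83 for Vmn2r7, -0.28 for Vmn2r1 and 0.03 for Vmn2r3. After Benjamini-Hochberg adjustment over 18495 genes, 0 of 7 members passed a threshold of 0.05, against 0.0595% of all genes tested, and 5 of 7 had an unadjusted p under 0.05, as had 1891 of all genes. With DESeq2, which called 2.1% of all genes, 2 of 7 members passed, namely Vmn2r5 (adjusted p = 0.00168) and Vmn2r7 (adjusted p = 0.0495). The smallest adjusted p of the members in edgeR was 0.24, for Vmn2r5. It was 0.0565 without Het replicate 1 and lay between 0.00168 and 0.715 over all alternatives.

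The median log2 fold change of the 7 members was -0.72, beside 0.01 over all genes and -0.37 over the other 114 V2r genes tested. Of these others, 94 were below 0, 45 had an unadjusted p under 0.05 and 1, Vmn2r78, passed the adjusted test with a lower level in cKO, while DESeq2 called 19, all lower in cKO. Without Het replicate 1, the median was -0.88 over the members and -0.49 over the other V2r genes, of which 97 were below 0, 67 had an unadjusted p under 0.05 and 4 were called by edgeR. Values below 0 were thus also frequent among V2R genes outside family C.

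**Figure D3:**
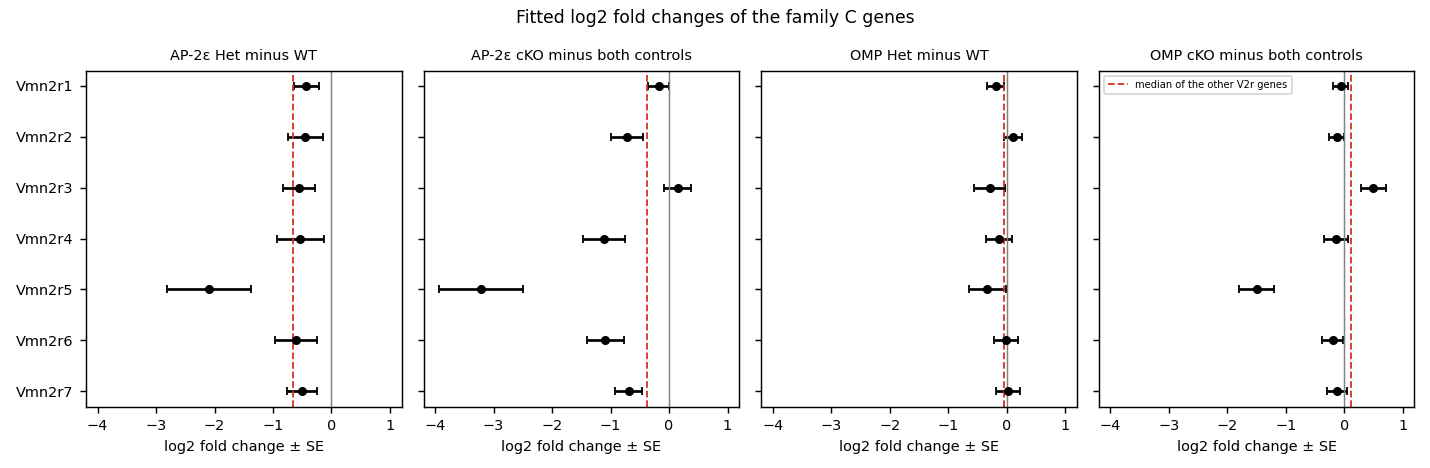
Fitted log2 fold changes with SE (edgeR) of the 7 genes in 4 comparisons, with 0 in grey and the median of the other V2r genes as a dashed line. In AP-2ε cKO, Vmn2r5 is at -3.21 and Vmn2r3 at 0.15, and in OMP cKO Vmn2r5 is at -1.50 and Vmn2r3 at 0.50.

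Vmn2r1, which marks its own subset of basal neurons, had the smallest of the negative fold changes in AP-2ε cKO against both controls. Against wild-type alone, that of Vmn2r3 was smaller (-0.13 beside -0.39). Vmn2r1 was at 131, 117 and 127 CPM in AP-2ε wild-type, 64, 112 and 103 in Het and 106, 72.9 and 107 in cKO libraries. On this scale, but not in TPM, the cKO libraries were below the wild-type ones. They overlapped the Het ones, which were in CPM themselves all below wild-type. Among OMP libraries it was at 108, 97.4 and 151 CPM in wild-type, 106, 105 and 104 in Het and 96.4, 105 and 119 in cKO libraries, with all groups overlapping.

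Vmn2r2, the most abundant receptor of the family per length, was at 119, 113 and 121 CPM in AP-2ε wild-type, 43.6, 103 and 112 in Het and 59.6, 49.4 and 74.1 in cKO libraries. The cKO libraries were below all controls except Het replicate 1. In the OMP line Vmn2r2 was at 98.2, 75.2 and 112 CPM in wild-type, 101, 102 and 107 in Het and 83.3, 83.9 and 104 in cKO libraries, which overlapped.

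Vmn2r5 is the closest relative of Vmn2r2 in sequence, but its levels in AP-2ε mice differed further between groups. Its estimated counts were 733, 656 and 434 in AP-2ε wild-type, 37, 369 and 215 in Het and 22, 181 and 37 in cKO libraries, which is 19, 14.6 and 9.43 CPM, 0.568, 5.71 and 3.79 CPM, and 0.342, 1.3 and 0.543 CPM. The cKO libraries were below all wild-type libraries and below the Het libraries except Het replicate 1, and all Het libraries were below all wild-type ones. The library with conflicting labels held 14 estimated counts of Vmn2r5 (0.278 CPM), fewer than any of the 18 grouped libraries.

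In the OMP line Vmn2r5 was at 18.5, 19.8 and 24.1 CPM in wild-type, 9.72, 14.3 and 25.8 in Het and 5.21, 6.31 and 8.23 in cKO libraries, from 334 to 452 estimated counts in cKO and 621 to 1764 in controls. The cKO libraries were below all 6 controls. The log2 fold change was -1.50 (SE 0.30) with an adjusted p of 0.44 in edgeR and 6.86e-05 in DESeq2. Between the control groups of the lines, Vmn2r5 was -1.42 (SE 0.42) on the log2 scale in AP-2ε relative to OMP (edgeR adjusted p = 0.37). It was -0.53 between the wild-type libraries alone and -2.31 between the Het libraries alone. Line, mouse background and time of preparation cannot be told apart in it.

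Vmn2r4, Vmn2r6 and Vmn2r7, which are nearly identical in their coding sequence, had like profiles. Vmn2r4 was at 74.8, 57.2 and 69.2 CPM in AP-2ε wild-type, 18.2, 63.6 and 57.7 in Het and 26.8, 18 and 32.4 in cKO libraries. Vmn2r6 was at 141, 102 and 122 CPM, 35.8, 105 and 100 CPM, and 41.4, 37.3 and 61.4 CPM in the same order. In both genes every cKO library was below every wild-type library and below Het replicates 2 and 3.

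Vmn2r7 gave the most reads of the family on average over the 18 libraries, but fewer than Vmn2r1 in 3 of 3 AP-2ε cKO libraries. It was at 178, 143 and 165 CPM in AP-2ε wild-type, 64.3, 140 and 138 in Het and 86.9, 69.7 and 95.9 in cKO libraries. Here too the cKO libraries were below all controls but Het replicate 1. In the OMP line the cKO libraries of these genes overlapped the controls, with Vmn2r4 at 41.1 to 69.7 CPM against 50.2 to 79.7, Vmn2r6 at 83.3 to 130 against 94.9 to 151 and Vmn2r7 at 120 to 175 against 125 to 191.

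Vmn2r3, the member with the smallest share of sequences in common with other genes, had another profile. It was at 46.2, 35 and 46.3 CPM in AP-2ε wild-type, 17.9, 41.8 and 26.6 in Het and 39.7, 32.5 and 44.8 in cKO libraries, and the 3 groups overlapped. With OMPCre it was at 33.4, 38.8 and 52.2 CPM in wild-type, 29.4, 29.7 and 42.9 in Het and 45.5, 40.9 and 72.8 in cKO libraries, and these groups overlapped as well. The log2 fold change of Vmn2r3 in OMP cKO was 0.50 (SE 0.22, edgeR adjusted p = 1.00), and without OMP cKO replicate 3 it was 0.20.

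The shares of the members within the family were not the same in all groups. Vmn2r3 made up 8.61%, 8.17% and 9.26% of the summed family TPM in AP-2ε wild-type, 9.04%, 8.91% and 6.83% in Het and 14.8%, 14.1% and 14.5% in cKO libraries, so that cKO and control libraries did not overlap. For OMP libraries this share was 8.09%, 10.7% and 9.56% in wild-type, 7.28%, 6.52% and 8.79% in Het and 12.5% and 15.1% in cKO replicates 1 and 3, while cKO replicate 2 lay within the wild-type range. Shares are given as a description without a test, and a share of one gene moves with the levels of the others.

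Vmn2r1 made up 13%, 13% and 13.1% of the family TPM in AP-2ε wild-type, 17.8%, 13% and 12.8% in Het and 20.2%, 18% and 17% in cKO libraries, where Het replicate 1 lay within the cKO range. The share of Vmn2r6 was 16.2%, 14.8% and 15.5% in wild-type, 13.3%, 16% and 15.5% in Het and 10.8%, 10.7% and 12.3% in cKO libraries, which were below all controls. Vmn2r7 made up 18.7% to 20.3% in AP-2ε cKO against 21% to 24.4% in the controls, and Vmn2r2 had a share of 22.2% to 31.5% over all 18 libraries. Vmn2r5 made up 2.05% ± 0.639 (SD, n = 3) in AP-2ε wild-type, 0.592% ± 0.352 in Het and 0.216% ± 0.196 in cKO libraries, where Het and cKO overlapped. For OMP libraries its share was 3.33% ± 0.45 in wild-type, 2.56% ± 1.04 in Het and 1.15% ± 0.102 in cKO libraries, which were below all controls.

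**Figure D4:**
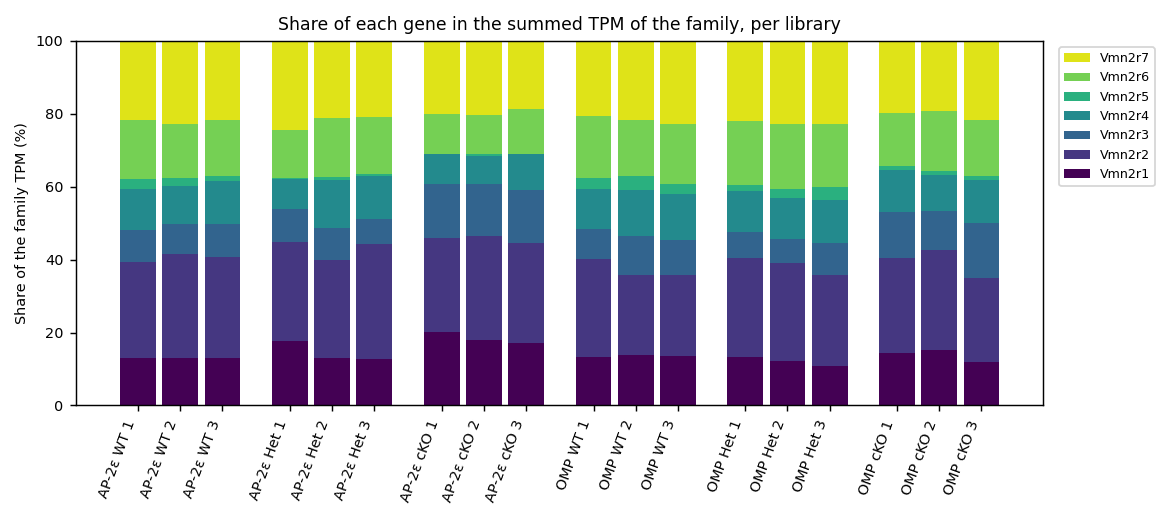
Share of each gene in the summed TPM of the family, as stacked bars in percent with 1 bar per library. The Vmn2r3 segment is 14.1% to 14.8% in AP-2ε cKO and 6.83% to 9.26% in AP-2ε controls, and the Vmn2r5 segment is barely visible in AP-2ε cKO.

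The Het and wild-type controls of the AP-2ε line were also compared with each other. The log2 fold change of Het against wild-type was -2.10 (SE 0.72) for Vmn2r5 and between -0.60 and -0.43 for the other 6 members. With edgeR 0 of 7 passed the adjusted test, against 0.0487% of all genes, 1 of 7 had an unadjusted p under 0.05 (1011 of all genes), and DESeq2 also called 0, against 0.68% of all genes. In CPM, all Het libraries were below all wild-type libraries for 4 of 7 members (Vmn2r1, Vmn2r2, Vmn2r5 and Vmn2r7), beside 5.04% of all genes tested and 54 of 114 other V2r genes. In TPM, Vmn2r5 was the only member without overlap. The highest Het and lowest wild-type libraries were then at 14.3 and 13.4 TPM for Vmn2r1. They were at 32.4 and 28.2 TPM for Vmn2r2 and at 23.5 and 23.3 TPM for Vmn2r7. The family median was -0.53 and that of the other V2r genes -0.65, and of the latter 60 had an unadjusted p under 0.05, 0 were called by edgeR and 24 by DESeq2, of which 23 were lower in Het. Without Het replicate 1, the median was -0.23 over the family and -0.44 over the other V2r genes, of which 41 had an unadjusted p under 0.05 and 2 were called by edgeR. All members were then nearer to 0, with -1.60 for Vmn2r5, -0.32 for Vmn2r3, -0.26 for Vmn2r6, -0.23 for both Vmn2r1 and Vmn2r7, -0.15 for Vmn2r4 and -0.14 for Vmn2r2. Other Het libraries moved them the other way, to -0.93 for Vmn2r3 and -0.82 for Vmn2r4 without Het replicate 2 and to -0.69 for Vmn2r2 without Het replicate 3.

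The size of the AP-2ε cKO difference depended on the control used. Against wild-type libraries alone, the log2 fold change was -4.26 (SE 0.80) for Vmn2r5, -1.39 (SE 0.40) for Vmn2r4, -1.39 (SE 0.36) for Vmn2r6, -0.95 (SE 0.30) for Vmn2r2 and -0.94 (SE 0.26) for Vmn2r7, with Vmn2r1 at -0.39 and Vmn2r3 at -0.13. By edgeR 0 of 7 passed the adjusted test, against 0.027% of all genes, and 5 of 7 had an unadjusted p under 0.05 (1454 of all genes). DESeq2 called 3 of 7 lower in cKO (Vmn2r2, Vmn2r5 and Vmn2r7), against 1.08% of all genes, and 35 of the other V2r genes. In CPM, all cKO libraries were below all wild-type libraries for 6 of 7 members, beside 6.79% of all genes and 65 of 114 other V2r genes (57%). Of these members, Vmn2r1 overlapped in TPM, with 9.29 to 18.1 in cKO against 13.4 to 17.8 in wild-type.

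Against Het libraries alone, Vmn2r5 was at -2.17 (SE 0.74), Vmn2r4 at -0.86, Vmn2r6 at -0.78, Vmn2r2 at -0.50 and Vmn2r7 at -0.44, whereas Vmn2r1 was at 0.03 and Vmn2r3 at 0.43. Without Het replicate 1, Vmn2r5 was at -2.66, Vmn2r4 at -1.24, Vmn2r6 at -1.13, Vmn2r2 at -0.81 and Vmn2r7 at -0.72, Vmn2r1 turned to -0.17, and Vmn2r3 was at 0.19. This alternative was chosen after the data were seen, and 0 of 7 passed in it by edgeR, against 0.127% of all genes, with 5 of 7 at an unadjusted p under 0.05 (1154 of 18922 genes). In the same fit 34 of 114 other V2r genes had an unadjusted p under 0.05, 2 were called, and their median was -0.28. With all Het libraries, 0 of 7 passed in edgeR, against 0.103% of all genes, 1 of 7 had an unadjusted p under 0.05 (1867 of all genes), and DESeq2 called 0, against 2.03% of all genes. The other V2r genes had a median of -0.08 in this comparison, and DESeq2 called 3 of them higher and 5 lower in cKO. EdgeR called 1, Vmn2r122, lower in cKO (-2.03, SE 0.26, edgeR adjusted p = 0.036), which was at 1.73 in Het against wild-type (edgeR adjusted p = 0.096) and at -0.30 in cKO against wild-type. No member had all cKO libraries below both kinds of control (0 of 7, beside 2.74% of all genes and 2 of 114 other V2r genes), and Het replicate 1 lay within or below the cKO range for each. Without it, this held for 5 of 7, beside 3.47% of all genes and 34 of 114 other V2r genes, while other controls of Vmn2r1 and Vmn2r3 still overlapped the cKO libraries. These comparisons share their cKO libraries and are not independent of each other.

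Under OMPCre, the values apart from those of Vmn2r5 and Vmn2r3 were close to the controls. The log2 fold change of cKO against both controls was between -0.20 and -0.06 for Vmn2r1, Vmn2r2, Vmn2r4, Vmn2r6 and Vmn2r7, and between -0.42 and 0.04 with each library left out in turn. By edgeR 0 of 7 members passed, against 0.0322% of 18623 genes, and 2 of 7 had an unadjusted p under 0.05, as had 791 of all genes. DESeq2, which called 0.423% of all genes, called 1 of 7, Vmn2r5. In CPM this was also the only member with all cKO libraries below all controls (1 of 7, beside 0.956% of all genes and 1 of 114 other V2r genes). In TPM its cKO libraries (0.801 to 1.71) overlapped the controls (1.54 to 5.8). The median was -0.13 over the family and 0.12 over the other V2r genes, of which 33 were below 0, 0 were called by edgeR and 1 by DESeq2, with 15 at an unadjusted p under 0.05.

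OMP Het and wild-type controls differed by -0.33 to 0.11 on the log2 scale for the 7 members, with Vmn2r5 lowest, which was at -0.79 without Het replicate 3 and at -0.06 without Het replicate 1. With edgeR 0 of 7 passed, against 0.0752% of all genes, 0 had an unadjusted p under 0.05 (1088 of all genes), and DESeq2 called 0, against 0.84% of all genes. Between the controls of the 2 lines, the 6 members other than Vmn2r5 differed by -0.25 to 0.02. There edgeR called 0 of 7, against 0.2% of all 19465 genes, with 1 of 7 at an unadjusted p under 0.05 (1448 of all genes), and DESeq2 called 0, against 1.03% of all genes.

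The cKO effect itself was compared between the lines as an interaction. The difference of log2 fold changes (AP-2ε minus OMP) was -1.71 (SE 0.74) for Vmn2r5, -0.98 (SE 0.44) for Vmn2r4, -0.89 (SE 0.39) for Vmn2r6, -0.60 for Vmn2r2, -0.57 for Vmn2r7, -0.35 for Vmn2r3 and -0.12 for Vmn2r1. Without OMP cKO replicate 3 it was -0.05 for Vmn2r3 and -0.35 for Vmn2r7. None of the 7 passed the adjusted test in edgeR (0 of 7, against 0.00514% of all genes, with 3 of 7 and 983 of all genes at an unadjusted p under 0.05) or in DESeq2 (0 of 7, against 0.259% of all genes). Of the other V2r genes, 100 of 114 were below 0 in this comparison, with a median of -0.56, beside -0.60 in the family.

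Markers of basal VSNs were set beside these values. The summed level of Gnao1, Robo2, Tfap2e, Gng8 and Kirrel3 ranged from 470 to 550 CPM in AP-2ε wild-type, from 283 to 418 in Het and from 417 to 526 in cKO libraries, and from 420 to 536 CPM over the OMP libraries. In AP-2ε cKO against both controls 4 of these 5 markers were above 0 with a median of 0.07 (2 of 5 with a median of -0.02 without Het replicate 1), and 0 of 5 were called by edgeR or DESeq2, with 1 at an unadjusted p under 0.05. In AP-2ε Het against wild-type all 5 were below 0 with a median of -0.49, 4 had an unadjusted p under 0.05, and edgeR called 0 and DESeq2 called 1, Tfap2e, the gene that holds the Cre. Against wild-type alone, AP-2ε cKO had 3 of 5 below 0 and a median of -0.23. Against Het alone it had 5 of 5 above 0 and a median of 0.53 (0.40 without Het replicate 1), with 2 at an unadjusted p under 0.05, 0 called by edgeR and 1, Robo2, called higher by DESeq2. In summed level all Het libraries lay below all wild-type libraries, whereas cKO and wild-type libraries overlapped, and the part of these levels in the family values was not tested.

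Per unit of Gnao1, the family sum was 2.92, 2.83 and 2.99 (CPM per CPM) in AP-2ε wild-type, 1.81, 2.97 and 2.91 in Het and 2.05, 1.52 and 1.98 in cKO libraries. Apart from Het replicate 1, all controls were above all cKO libraries. In the OMP line the ratio was 2.34, 2.63 and 3.23 in wild-type, 2.19, 2.57 and 3.13 in Het and 2.22, 2.04 and 2.92 in cKO libraries, which overlapped. The family had a share of 13.5% ± 0.93 (SD, n = 3) of the TPM of all V2r genes in AP-2ε cKO, against 15.1% ± 1.19 in wild-type and 14.6% ± 1.96 in Het libraries. For OMP libraries it was 11.8% ± 0.935 in cKO, 13.7% ± 0.862 in wild-type and 13.3% ± 0.851 in Het libraries.

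**Figure D5:**
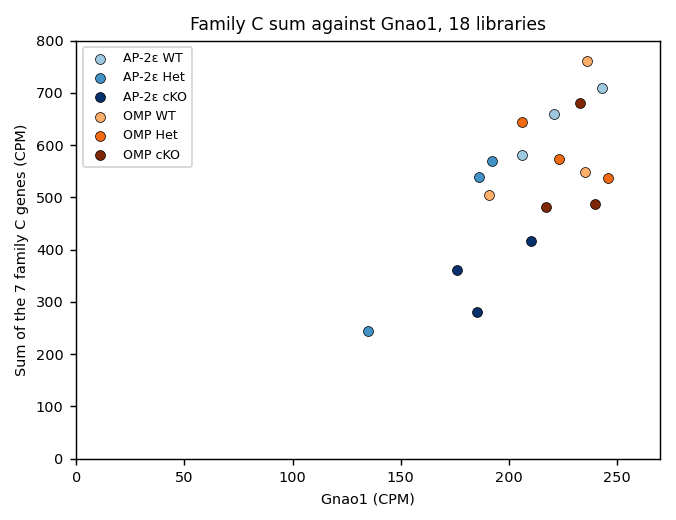
Sum of the 7 family C genes against Gnao1, both in CPM, with 1 dot per library coloured by group and both axes starting at 0. The 3 AP-2ε cKO libraries have 281 to 416 CPM of family C at 176 to 210 CPM of Gnao1, and AP-2ε Het replicate 1 is the lowest dot on both axes.

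Markers of other cell types were set beside the AP-2ε values as well. In AP-2ε cKO against both controls, all 5 sustentacular and gland markers were below 0 (median -0.78), all 5 immature and progenitor markers were above 0 (0.59) and all 5 apical VSN markers were above 0 (0.26), and edgeR called 0 of each, with 3, 2 and 3 at an unadjusted p under 0.05, while DESeq2 called 1, Cyp2a5, lower in cKO. The summed apical markers ranged from 1397 to 1462 CPM in AP-2ε cKO and from 1102 to 1324 CPM in its controls. The part of these shifts in the family values was not tested. In the remaining lists of that comparison, medians were 0.19 for mature VSNs, 0.14 for main olfactory neurons, 0.06 for endothelium and -0.21 for glia, with 0 called by either tool and 0 to 1 in each list at an unadjusted p under 0.05. Without Het replicate 1, 4 of 5 sustentacular and gland markers were below 0 (median -0.70), 5 of 5 immature and progenitor markers above 0 (0.47) and 4 of 5 apical VSN markers above 0 (0.21).

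In the OMP line, markers of main olfactory neurons were not at one level in the groups. All 5 were above 0 in Het against wild-type (median 0.54), each with an unadjusted p under 0.05, and all 5 were below 0 in cKO against Het (median -0.54), 4 of them with an unadjusted p under 0.05. EdgeR called 0 of 5 in both comparisons, and DESeq2 called Cnga2 and Gnal in both. Against wild-type the cKO median was 0.01. In OMP cKO against both controls, all 5 apical (median 0.20) and all 5 basal VSN markers (0.15) were above 0, and all 4 mature VSN markers were below 0 (-0.19). Neither tool called any of them, with 1, 2 and 0 at an unadjusted p under 0.05 (edgeR). The summed apical markers were at 1333 to 1422 CPM in OMP cKO, 1120 to 1199 in wild-type and 1172 to 1329 in Het libraries. The part of all these shifts in the Vmn2r5 values was not tested.

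Possible partners of V2Rs, namely the nonclassical H2-M class I genes and B2m, and the vomeronasal calreticulin gene Calr4 were measured as a list of 11 genes. In AP-2ε cKO against both controls, 10 of 11 were below 0 (median -0.64) and 0 were called by edgeR, with 4 at an unadjusted p under 0.05, while DESeq2 called H2-M9 and H2-M11 lower in cKO. Without Het replicate 1, 9 of 11 were below 0 (median -0.81) and 9 had an unadjusted p under 0.05, with 0 called by edgeR. With Het replicate 1 included, the gene above 0 was H2-M10.4 (1.06, SE 0.31), which was among the 4 with an unadjusted p under 0.05 (edgeR). In AP-2ε Het against wild-type 10 of 11 were below 0 as well (median -0.73), with 6 at an unadjusted p under 0.05, 0 called by edgeR and 4 called lower by DESeq2. H2-M9 was at 15.4, 10.7 and 10.9 CPM in AP-2ε wild-type, 1.14, 3.51 and 2.57 in Het and 0.948, 2.07 and 2.85 in cKO libraries, so that both groups carrying Cre were below wild-type and overlapped each other. In OMP cKO, 3 of 11 were below 0 (median 0.03), with 4 at an unadjusted p under 0.05, 0 called by edgeR and 1, H2-M10.4, called higher by DESeq2.

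Across the 18 libraries, members varied together to unequal degrees. On log2(CPM + 1), Pearson's r was 0.98 for each pair among Vmn2r4, Vmn2r6 and Vmn2r7, which also share reads and coding sequence. Pairs with Vmn2r3 had values between 0.32 (with Vmn2r5) and 0.69 (with Vmn2r1), and all other pairs between 0.59 (Vmn2r1 with Vmn2r5) and 0.98. With the 6 group means taken off, Vmn2r3 had r of 0.65 to 0.88 with the others, so that it followed the family between replicates more than between groups. These correlations describe libraries that share a scaling and are given without a test.

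Of 15831 genes with a mean of at least 1 CPM, those most like the family sum over the 18 libraries were other V2R genes, namely Vmn2r67 (r = 0.95), Vmn2r30 (0.94), Vmn2r82 (0.92), Vmn2r76 (0.92) and Vmn2r105 (0.91). Calr4 was at 0.89, Gnao1 at 0.76 and Omp, the marker of mature olfactory and vomeronasal neurons, at -0.05. Omp holds the Cre of the OMP line, where it was at 305 to 476 CPM in wild-type, 225 to 248 in Het and 238 to 286 in cKO libraries. The part of this allele in its r was not tested. With group means taken off, the nearest genes were the glutamate transporter gene Slc17a6 (0.97), Xntrpc (0.97), which overlaps the vomeronasal channel gene Trpc2, Fgf12 (0.96), Cntn4 (0.96) and Vmn2r28 (0.96), while Omp was at 0.80 and Cyp2a5 at -0.84. Gnao1 was at 0.73 on this measure, and Gnai2, a marker of apical VSNs, at 0.04.

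The promoters of the members were searched for 5 short motifs on both strands, in windows of 250 bases before to 50 after each RefSeq start (GRCm38.p6), of which 6 of 7 members had one and Vmn2r5 did not. The Smad box CAGACA was found 1 time in Vmn2r1 and 2 times each in Vmn2r4, Vmn2r6 and Vmn2r7, where the matches overlap on the reverse strand, and 21% of 32851 promoters held it. The AP-2 motif GCCNNNGGC was found 1 time in Vmn2r2 (16.6% of promoters), the homeodomain motif TAATTA 1 time in Vmn2r3 (5.29%), and GGCGCC (11.9%) and CAGCTG (16.3%) in no member. Letters of GCCNNNGGC and GGCGCC can overlap. The RefSeq starts of Vmn2r2, Vmn2r3, Vmn2r4, Vmn2r6 and Vmn2r7 lie 2292 to 125163 bases inside the GENCODE gene starts. Their windows thus lie within the genes and may not be promoters used in the VNO. The RefSeq start of Vmn2r1 lies 95 bases inside, and its window holds the GENCODE start. The windows of Vmn2r4, Vmn2r6 and Vmn2r7 are near copies of each other, so their Smad box matches are not independent. These windows and that of Vmn2r2 also end in the same bases.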

How the data were processed

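Whole VNOs of P21 female mice were profiled by polyA mRNA-seq (stranded kit, 75-base single reads). Per the submitters' processing notes, the authors quantified reads with Salmon 0.14.0 and tested with DESeq2 1.22.2. The deposited values are estimated counts and TPM per transcript and library. The methods name a coding-sequence assembly, but transcript lengths in the files equal full GENCODE vM21 transcripts (GRCm38). Of 116248 transcripts, 116072 were matched to vM21 genes, and the 176 unmatched held at most 0.0324% of counts. Read-to-transcript mappings were not used here.

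Estimated counts were summed per gene, rounded, filtered (filterByExpr) and scaled by TMM. Each line was fitted with 3 groups, and the 2 lines together with 6, in edgeR 4.0.16 (R 4.3.3, quasi-likelihood, Benjamini-Hochberg over all genes, threshold 0.05). Standard errors are the fold change over the root of its F value. CPM used TMM over all libraries. Replicate numbers served as a block only as an alternative, since the labels do not tie them to a shared litter or day and not all same-numbered pairs had correlated deviations. Alternatives were DESeq2 1.42.0, its size factors, other filters, length-scaled TPM, the series of animal names as a covariate, other controls and each library left out. A further alternative added the library with conflicting labels, otherwise in no group, to AP-2ε Het. The fits were tested on simulated data with known changes. P-values measure the spread between the deposited replicates. Named genes were the 7 members, the 5 genes most like their sum, the 3 highest other V2r genes, and marker lists, with V2r genes called by a test, targets of a check and genes sharing reads added after their values were seen. Members and lists were chosen with earlier results of these data known.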

Additional observations from a re-analysis of the deposited data

Results flagged for a closer look

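For Vmn2r2 in log2(CPM + 1), every library of the Het group moved in opposite directions in the 2 lines relative to the mean of its wild-type libraries, lower in AP-2ε Het and higher in OMP Het. This did not hold in TPM. On that scale the AP-2ε Het libraries reached 32.4, above their wild-type mean of 31.7. The OMP Het libraries went down to 25, below theirs of 25.8. The difference of the mean changes on the log2(CPM + 1) scale (AP-2ε minus OMP) was -0.70. Without AP-2ε Het replicate 1 it was -0.27. Without OMP wild-type replicate 2 it was -0.54, and the OMP Het libraries then no longer all lay above wild-type (mean change -0.02). This difference was not tested.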

How the results depend on the processing

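Over the 42 combinations of member and comparison and all alternatives tried, 798 of 833 values kept their direction and their side of the threshold, 3 passed it under DESeq2 and 32 changed sign. The number of members called was 0 in all 6 comparisons under every alternative except DESeq2, which called 2 in AP-2ε cKO and 1 in OMP cKO; the cause was not tested. All sign changes were in values near 0. Against Het controls only, Vmn2r1 was at 0.03 in AP-2ε cKO and 0.03 in OMP cKO, and Vmn2r3 was at -0.13 in AP-2ε cKO against wild-type controls only. For OMP Het against wild-type, Vmn2r6 was at 0.10 with length-scaled TPM and 0.01 with animal names as a covariate. Between the controls of the lines, wild-type libraries alone gave 0.08 for Vmn2r1, 0.04 for Vmn2r3, 0.14 for Vmn2r4, 0.05 for Vmn2r6 and 0.11 for Vmn2r7, and Het libraries alone gave -0.26 for Vmn2r2. With each library left out in turn, OMP cKO values ranged from -0.15 to 0.04 for Vmn2r1 and from -0.39 to 0.01 for Vmn2r4. OMP Het values ranged from -0.31 to 0.03 for Vmn2r1, -0.03 to 0.26 for Vmn2r2, -0.49 to -0.09 for Vmn2r3, -0.24 to 0.12 for Vmn2r4, -0.15 to 0.22 for Vmn2r6 and -0.10 to 0.25 for Vmn2r7. Values between the lines' controls ranged from -0.13 to 0.05 for Vmn2r1, -0.10 to 0.18 for Vmn2r2, -0.28 to 0.03 for Vmn2r3, -0.21 to 0.13 for Vmn2r4, -0.36 to -0.07 for Vmn2r6 and -0.24 to -0.01 for Vmn2r7, and the interaction for Vmn2r1 from -0.23 to 0.04.

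The labels do not say that replicate numbers pair samples. Correlations of deviations from the group means were -0.31 to 0.19 for same-numbered and -0.23 to 0.28 for other AP-2ε libraries, and 0.02 to 0.53 (7 of 9 over 0.1) against -0.42 to 0.23 (4 of 18) in the OMP line, where a library correlated best with its own number in 13 of 18 cases. This is a hint of shared numbers in the OMP line, short of every pair. Within each number, OMP cKO was above both controls for Vmn2r3 and below both for Vmn2r5 and Vmn2r6 (3 of 3 each), and with the replicate block these were at 0.48, -1.47 and -0.22 (edgeR adjusted p = 0.214, 0.108 and 0.76). With the replicate block, 0 members were called, Vmn2r6 in OMP Het against wild-type was at 0.01, and the genes called over the whole table went from 11 to 2 in AP-2ε cKO, 6 to 0 in OMP cKO, 9 to 3 in AP-2ε Het, 14 to 7 in OMP Het, 39 to 25 between controls and 1 to 0 for the interaction. With DESeq2 these counts were 388, 78, 123, 155, 200 and 50. Leaving out AP-2ε Het replicate 1 gave 22 genes in AP-2ε cKO and 21 in AP-2ε Het. Vmn2r5 had 22 to 181 estimated counts in AP-2ε cKO, and the part of depth in its test was not tested.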
